A study of Homo sapiens with 6 samples.

Results

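Glycolysis and gluconeogenesis enzymes were described as a group of 29 genes named from the pathway. They were chosen with earlier results of these data known, and some genes of the same steps, such as HKDC1 and DLAT, stand in a separate list. All 29 were found by symbol among the 20030 genes of the count table. HepG2, the cell line used, is an established human hepatoma line. The labels give 3 numbered libraries of cells carrying a control shRNA (sh-ctrl) and 3 of cells whose shRNA targets KIF11 (sh-KIF11), a mitotic kinesin. By the study's methods shRNAs were delivered in pLKO.1 lentivirus with puromycin selection, so the controls share the vector and the drug, and the labels do not tell hairpins against KIF11 apart. Because nothing states that the numbered libraries are separate cultures, the p-values measure the spread between these libraries, which may be technical.

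Glycolysis splits glucose into pyruvate in the cytosol, and lactate dehydrogenase or the pyruvate dehydrogenase complex then takes the pyruvate on. Gluconeogenesis runs the reversible steps backwards and replaces the irreversible ones with pyruvate carboxylase, phosphoenolpyruvate carboxykinase, fructose-1,6-bisphosphatase and glucose-6-phosphatase. Several steps have isozymes encoded by different genes. Adult hepatocytes favour liver forms such as the PKLR pyruvate kinase, whereas many tumour lines favour HK2, ALDOA and PKM. Many glycolytic genes are also known targets of the hypoxia-inducible factors.

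Most of the pathway was lower in sh-KIF11. Of the 26 genes with enough counts to be tested, 21 were lower and 4 were higher at an adjusted p under 0.05, and only GCKR did not pass. Over all 12369 tested genes 69.1% passed, 34.7% lower and 34.4% higher, so a change as such was common in these libraries and the members are read against those shares. The median log2 fold change of the 26 genes was -0.69, with quartiles of -0.90 and -0.34, beside a median of 0.00 over all tested genes. A fall of at least 0.58 on the log2 scale was found for 15 members, against 10.9% of all tested genes, and a fall of at least 1 for 4 members, against 3.52%. A rise of at least 0.58 was found for 3 members, against 15.2% of all tested genes, and a rise of at least 1 for 2 members, against 8.13%. The groups of libraries were separate, with no overlap, for 26 of the 26 genes and for 71.2% of all tested genes.

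Levels here are CPM, counts scaled to library size with TMM factors, and each change is sh-KIF11 over sh-ctrl given relative to the typical tested gene. Adjusted p-values are Benjamini-Hochberg values over all tested genes, from the quasi-likelihood test of edgeR. Depth lay between 18167773 and 19583282 counts per library. Library totals alone, without TMM, raised the median of all genes to 0.24, and under that scaling 19 members were lower and 4 higher, while all genes split into 6621 higher and 2373 lower in place of 4254 and 4294. The targeted gene KIF11 had 1976, 2088 and 2039 counts in sh-ctrl against 1448, 1478 and 1240 in sh-KIF11, a log2 change of -0.75 (edgeR adjusted p = 4.22e-15). In bulk libraries, fewer cells of one kind and less RNA per cell cannot be told apart.

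The HepG2 identity was checked with 10 hepatocyte and hepatoma markers, 0 of which were at 3 counts or fewer in every library. Their summed level ranged from 32289 to 33851 CPM in sh-ctrl and from 14436 to 15578 CPM in sh-KIF11, and 9 of the 10 were lower at an adjusted p under 0.05 in edgeR's test. The fall of the enzymes thus went with a fall of liver markers, whose part in it was not tested. Fibroblast markers summed to at most 0.7098 CPM in any library, with 1 of 6 (DCN) at 0 counts throughout. Endothelial markers summed to 3.16 to 3.56 CPM in sh-ctrl against 4.69 to 4.98 CPM in sh-KIF11, and muscle markers summed to 0.296 to 1.16 CPM in sh-ctrl against 1.69 to 1.77 CPM in sh-KIF11, with MYH2 at 0. Of the leukocyte markers, CD68 was at 87.7, 82.2 and 77.1 CPM in sh-ctrl against 41.2, 45.5 and 46.04 CPM in sh-KIF11, while PTPRC and CD3E had at most 3 counts in any library. The sums for neuron markers (115 to 129 CPM in sh-ctrl, 173 to 189 CPM in sh-KIF11) came almost wholly from TUBB3, while RBFOX3 and SNAP25 had at most 3.

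Taken as one pool of mRNA, the 29 genes made up 1.503, 1.56 and 1.46% of all counts in the sh-ctrl libraries against 0.979, 0.969 and 0.989% in the sh-KIF11 libraries. Every sh-KIF11 library lay below every sh-ctrl library. The means were 1.51% ± 0.0468 and 0.979% ± 0.00986 (SD, n = 3 each), a ratio of 0.649 (two-sided exact permutation p = 0.1, which 3 against 3 cannot go below). This share is relative to the library total, without TMM. GAPDH, ENO1, ALDOA and LDHA together held 67.6% of these counts in sh-ctrl against 61.9% in sh-KIF11.

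**Figure D1:**
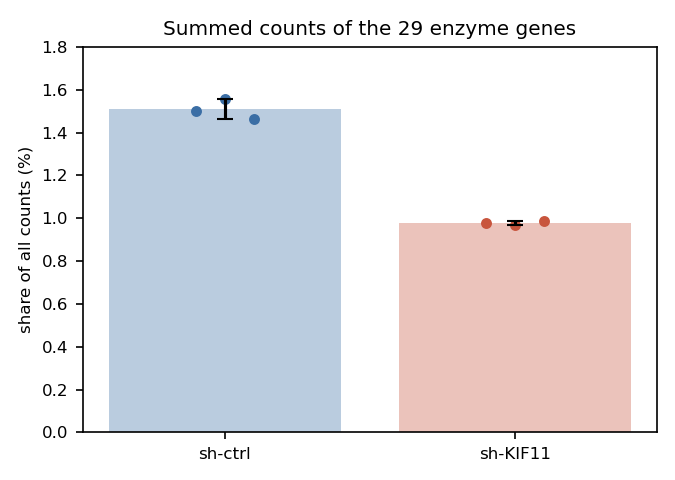
Summed counts of the 29 enzyme genes as a percent of all counts (y axis) in sh-ctrl and sh-KIF11; points are libraries, bars are means and error bars are SD (n = 3). The sh-KIF11 libraries sit between 0.969% and 0.989%, all below the sh-ctrl libraries.

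Among the 26 tested members, the 4 that fell to less than 0.5 of their sh-ctrl level were ALDOC, G6PC, LDHA and ALDOA, and their promoters are printed because these members moved together. The sequences are RefSeq windows on GRCh38.p14, running from 250 bases before to 50 bases after the first start listed for the gene, on the strand of the gene. Capitals mark ACGTG on either strand, the core letters of the motif that hypoxia-inducible factors bind, including where it lies within CACGTG. The ALDOC window is chr17:28576846-28577145 (minus strand), that of G6PC (RefSeq symbol G6PC1) is chr17:42900549-42900848 (plus strand), that of LDHA is chr11:18394313-18394612 (plus strand) and that of ALDOA is chr16:30064029-30064328 (plus strand).
ALDOC: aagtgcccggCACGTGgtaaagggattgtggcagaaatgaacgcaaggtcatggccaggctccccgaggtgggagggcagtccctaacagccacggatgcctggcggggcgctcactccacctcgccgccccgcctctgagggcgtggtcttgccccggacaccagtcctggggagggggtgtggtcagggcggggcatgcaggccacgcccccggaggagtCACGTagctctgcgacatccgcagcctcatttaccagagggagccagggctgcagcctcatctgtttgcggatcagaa
G6PC: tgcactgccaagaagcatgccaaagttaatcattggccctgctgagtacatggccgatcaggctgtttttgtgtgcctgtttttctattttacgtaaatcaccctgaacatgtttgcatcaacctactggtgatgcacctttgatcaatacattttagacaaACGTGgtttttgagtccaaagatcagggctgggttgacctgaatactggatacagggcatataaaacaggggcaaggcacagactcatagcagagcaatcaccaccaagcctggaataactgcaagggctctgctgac
LDHA: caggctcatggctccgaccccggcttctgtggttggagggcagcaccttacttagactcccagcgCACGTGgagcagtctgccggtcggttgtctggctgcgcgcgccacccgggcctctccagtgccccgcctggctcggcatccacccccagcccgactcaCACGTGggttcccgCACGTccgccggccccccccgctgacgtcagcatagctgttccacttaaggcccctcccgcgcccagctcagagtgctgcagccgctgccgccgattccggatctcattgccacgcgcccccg
ALDOA: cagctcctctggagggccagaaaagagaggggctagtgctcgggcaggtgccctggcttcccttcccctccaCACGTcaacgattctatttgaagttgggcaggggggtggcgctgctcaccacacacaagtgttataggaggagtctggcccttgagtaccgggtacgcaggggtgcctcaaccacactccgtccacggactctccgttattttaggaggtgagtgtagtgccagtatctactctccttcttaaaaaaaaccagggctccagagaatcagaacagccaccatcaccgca
All 4 windows hold the motif, and those of ALDOC and LDHA hold it also as CACGTG, which reads the same on both strands. CACGTG was in 21.4% of the first windows of members and in 10.4% of those of genes tested here. Of the 28 members with a window, 13 (46.4%) hold the motif in the first window, namely 12 of the 21 that were lower and 1 of the 4 that were higher. Over all 27305 genes with a window of this length the share was 21.6%, and over the 10111 of them tested here it was 26.8%. PCK1 had no entry. In the first windows of PFKP, GAPDH, FBP1 and G6PC3, a stretch just after the start matched no GENCODE transcript of the gene. For 12 members RefSeq lists several starts, and 17 members hold the motif in at least 1 of their windows. No share over all genes was computed for any window, so the 17 is not read as a result. The members added by later windows were TPI1 and PGM1, which were lower, and PFKM and PFKP, which were higher. Of the higher members only HK1 then held it in no window, so the split by direction seen in the first window depends on the window used. A match of letters is a description and not a bound site.

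Glucose is trapped in the cell by hexokinase. HK2, the form typical of many tumours, was at 269.7, 287 and 277 CPM in the sh-ctrl libraries against 159, 163 and 149.9 CPM in the sh-KIF11 libraries. It fell by 0.82 on the log2 scale (standard error 0.0499, edgeR adjusted p = 3.09e-18). HK1, the form that most tissues use, moved the other way and had 30, 35 and 31 counts in sh-ctrl against 148, 163 and 165 in sh-KIF11. Its level rose from 1.82 ± 0.1295 to 7.87 ± 0.495 CPM (SD, n = 3 each), and the log2 change was 2.11 (standard error 0.178, edgeR adjusted p = 8.92e-14). GCKR, a regulatory protein of sugar phosphorylation in liver and not itself an enzyme, was at 18.8, 19.3 and 17.3 CPM in sh-ctrl against 16.8, 15.99 and 16.8 CPM in sh-KIF11, with a log2 change of -0.16 (edgeR adjusted p = 0.112), and library totals alone turned its sign (0.07).

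Levels of different genes were set side by side only per length, as FPKM. Of the FPKM of HK1 and HK2 together, HK1 held 0.514, 0.713 and 0.645% in the sh-ctrl libraries against 4.58, 4.64 and 5.297% in the sh-KIF11 libraries, so HK2 remained the larger by far. The log2 ratio of HK2 to HK1 changed by -3.03 (standard error 0.157), with no overlap between groups. HKDC1, a further hexokinase listed with the related isozymes, rose by 0.44 on the log2 scale (edgeR adjusted p = 6.36e-09), a value singled out after it was seen. With it included, HKDC1 held 29.1, 26.5 and 27.6% of the hexokinase FPKM in sh-ctrl against 43.4, 46.3 and 49.8% in sh-KIF11. HK2 then held 71.8% ± 1.19 in sh-ctrl against 50.9% ± 3.22 in sh-KIF11 (SD, n = 3 each). In sh-KIF11 library 3 HKDC1 passed HK2, at 49.8% against 47.5%. In FPKM, HK2 fell from 30.6 ± 0.908 to 19.5 ± 0.851 and HKDC1 rose from 11.8 ± 0.398 to 17.9 ± 1.798 (SD, n = 3 each).

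GPI, which turns glucose 6-phosphate into fructose 6-phosphate, was at 460.2, 465 and 419 CPM in sh-ctrl against 267, 263 and 267 CPM in sh-KIF11, a ratio of 0.592. PGM1, which links the same glucose phosphate to glycogen, was at 143, 150.3 and 133 CPM in sh-ctrl against 73.5, 72.2 and 71.6 CPM in sh-KIF11, a ratio of 0.5098. Both genes were lower in all sh-KIF11 libraries (edgeR adjusted p = 3.09e-17 and 1.82e-19).

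Phosphofructokinase commits sugar to glycolysis, and its subunits moved apart. PFKL, the liver subunit, was at 277, 259 and 239.9 CPM in sh-ctrl against 171, 169 and 166 CPM in sh-KIF11 and fell by 0.62 on the log2 scale (standard error 0.0517, edgeR adjusted p = 6.24e-14). PFKP, the platelet subunit, had 41, 40 and 50 counts in sh-ctrl against 230, 250 and 272 in sh-KIF11. It rose by 2.32 on the log2 scale (standard error 0.151, edgeR adjusted p = 2.67e-17), a larger rise than that of any other member tested. PFKM, the muscle subunit, had 25, 27 and 16 counts in sh-ctrl against 46, 43 and 49 in sh-KIF11, a log2 change of 0.82 (standard error 0.266, edgeR adjusted p = 0.00611). On log2(FPKM + 1) the rises of PFKP and PFKM were 1.05 and 0.22, since that scale shrinks the change of low genes, and the calls held. PFKP took 0.538, 0.842 and 1.001% of the phosphofructokinase FPKM in the sh-ctrl libraries against 4.99, 5.04 and 5.98% in the sh-KIF11 libraries. PFKM took 0.331, 0.364 and 0.184% in sh-ctrl against 0.941, 0.887 and 1.01% in sh-KIF11. PFKL thus still held 93.7% ± 0.6104 in sh-KIF11, against 98.9% ± 0.189 in sh-ctrl (SD, n = 3 each). The log2 ratio of PFKP to PFKL rose by 2.87 (standard error 0.283) and that of PFKM to PFKL by 1.82 (standard error 0.311).

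Aldolase cleaves fructose 1,6-bisphosphate. ALDOA, the ubiquitous aldolase, was at 2019, 2122 and 1930.2 CPM in sh-ctrl against 892, 888 and 912 CPM in sh-KIF11, a log2 change of -1.17 (standard error 0.0485, edgeR adjusted p = 6.76e-24). ALDOC, best known from brain, was at 73.9, 76.9 and 67.7 CPM in sh-ctrl against 25.4, 24.3 and 20.2 CPM in sh-KIF11, and its log2 fold change of -1.64 (standard error 0.0758, edgeR adjusted p = 2.89e-22) was the most negative of the members tested. For both genes every sh-KIF11 library lay below every sh-ctrl library. ALDOC made up 7.68, 7.83 and 7.49% of the FPKM of this pair in sh-ctrl against 6.18, 5.77 and 4.82% in sh-KIF11, and the log2 ratio of ALDOC to ALDOA changed by -0.49 (standard error 0.115).

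The middle of the pathway has 1 main gene per step, and each of these genes fell. TPI1, which interconverts the triose phosphates, was at 873, 935 and 866 CPM in sh-ctrl against 498, 478 and 495 CPM in sh-KIF11. GAPDH, the dehydrogenase often used as a reference gene, was at 3836, 3864 and 3664 CPM in sh-ctrl against 2004, 1994 and 2047 CPM in sh-KIF11, a ratio of 0.532. GAPDH changed by -0.91 on the log2 scale (standard error 0.0476, edgeR adjusted p = 1.98e-20), a change that lay between -0.94 and -0.67 over all settings tried. PGK1, which makes the first ATP of the pathway, was at 541, 568 and 571 CPM in sh-ctrl against 312, 309 and 316 CPM in sh-KIF11. PGAM1, the phosphoglycerate mutase, was at 563, 546 and 548 CPM in sh-ctrl against 371, 358 and 363 CPM in sh-KIF11. The log2 fold changes of TPI1, PGK1 and PGAM1 were -0.86, -0.84 and -0.60 (standard errors 0.0481, 0.0475 and 0.04701), and no sh-KIF11 library reached the level of any sh-ctrl library. GAPDH lies at chr12:6533927-6538374 (plus strand) of GRCh38 and has 62 named pseudogene copies in GENCODE release 29, none of them a row of the count table, so where reads of such copies were counted is uncertain.

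Enolase makes phosphoenolpyruvate. ENO1, its ubiquitous form, was at 3320.3, 3449 and 3188 CPM in sh-ctrl against 1881, 1844 and 1923 CPM in sh-KIF11, a log2 change of -0.82 (standard error 0.0482, edgeR adjusted p = 1.04e-18). ENO2, the neuronal form, was at 69.5, 70.8 and 61.7 CPM in sh-ctrl against 59.2, 53.7 and 51.7 CPM in sh-KIF11. Its smaller fall of 0.30 on the log2 scale (edgeR adjusted p = 0.000108) did not pass with library totals alone or with limma on FPKM. ENO3, the muscle form, was at 20.4, 19.6 and 20.97 CPM in sh-ctrl against 12.6, 12.2 and 9.63 CPM in sh-KIF11 and fell by 0.82 on the log2 scale (edgeR adjusted p = 1.28e-09). An exon of ENO3 overlaps PFN1 on the other strand, and whether the counting used strand is not given. ENO2 held 2.75% ± 0.103 of the enolase FPKM in sh-ctrl against 3.87% ± 0.288 in sh-KIF11 (SD, n = 3 each). The log2 ratio of ENO2 to ENO1 rose by 0.51 (standard error 0.0725), whereas that of ENO3 to ENO1 changed by -0.19 (standard error 0.184) and its groups overlapped.

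Pyruvate kinase closes the pathway. PKM was at 1399, 1453 and 1313 CPM in sh-ctrl against 1039.9, 1015 and 1021 CPM in sh-KIF11, a fall of 0.44 on the log2 scale (standard error 0.0481, edgeR adjusted p = 1.37e-10) that was smaller than those of GAPDH or ENO1. Gene counts do not separate its splice forms. PKLR, which encodes the liver and red cell enzyme, was at 34.9, 29.8 and 29.4 CPM in sh-ctrl against 17.4, 14.5 and 17.7 CPM in sh-KIF11, a log2 change of -0.92 (standard error 0.0882, edgeR adjusted p = 2.88e-12). PKLR also shares exon positions with HCN3 on the other strand. PKLR was the minor gene, at 3.03% ± 0.338 of the FPKM of the pair in sh-ctrl against 2.22% ± 0.259 in sh-KIF11 (SD, n = 3 each), and its log2 ratio to PKM changed by -0.46 (standard error 0.1400).

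LDHA, which turns pyruvate into lactate, was at 1739.8, 2000.4 and 1993 CPM in sh-ctrl against 808, 804 and 800.3 CPM in sh-KIF11. LDHA changed by -1.25 on the log2 scale (standard error 0.0513, edgeR adjusted p = 5.20e-24), and the groups did not overlap. LDHA lies at chr11:18394388-18408425 (plus strand) of GRCh38. LDHB, the heart-type subunit, was almost silent, with 11, 14 and 0 counts in sh-ctrl against 1, 1 and 4 in sh-KIF11, which the low-count filter left out. Fits that kept it called it lower, with an edgeR adjusted p = 0.00923 without a filter and 0.000501 to 0.0493 in 4 fits that left out 1 library each, but its groups overlapped, since 1 sh-ctrl library was at 0. In those 4 fits LDHB passed the filter only through its sh-ctrl libraries, so those calls are not read as support for a fall. On the oxidative side, PDHA1 and PDHB encode the E1 subunits of pyruvate dehydrogenase. PDHA1 was at 117, 126 and 119.6 CPM in sh-ctrl against 99.2, 99.2 and 94.1 CPM in sh-KIF11, and PDHB was at 92.96, 96.9 and 106 CPM in sh-ctrl against 72.02, 78.6 and 69.97 CPM in sh-KIF11. Their falls of 0.31 and 0.42 on the log2 scale passed (edgeR adjusted p = 1.81e-06 and 3.11e-08), that of PDHA1 not with library totals alone or limma on log2(FPKM + 0.1). The other parts of the complex, DLAT, DLD and PDHX, had log2 fold changes of -0.04, 0.13 and -0.07.

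Of the enzymes particular to gluconeogenesis, PC and PCK2 were lower, and PCK1 and FBP1 were near the floor. PC, the mitochondrial pyruvate carboxylase, was at 124, 122 and 113 CPM in sh-ctrl against 89.3, 84.1 and 87.8 CPM in sh-KIF11, a log2 change of -0.46 (edgeR adjusted p = 5.62e-10). PCK2, the mitochondrial phosphoenolpyruvate carboxykinase, was at 194, 191 and 167 CPM in sh-ctrl against 133, 136 and 139 CPM in sh-KIF11, a log2 change of -0.43 (edgeR adjusted p = 2.81e-09). PCK1, the cytosolic form and a classic hormone-controlled gene of liver, had only 12, 16 and 7 counts in sh-ctrl against 0, 4 and 0 in sh-KIF11. The low-count filter left PCK1 out, and every sh-ctrl library lay above every sh-KIF11 library. Fits that kept it called it lower, with an edgeR adjusted p = 7.97e-05 without a filter and 1.96e-05 to 0.00205 in 4 fits that left out 1 library each. In those 4 fits PCK1 passed the filter only through its sh-ctrl libraries, so those calls are not read as support for a fall. FBP1, the fructose-1,6-bisphosphatase of liver, had 6, 8 and 9 counts in sh-ctrl against 7, 7 and 10 in sh-KIF11, so that this step was close to silent in both groups and a fit without a filter did not call it (edgeR adjusted p = 0.85). In FPKM, FBP1 stood at 0.151 ± 0.0384 against 39.9 ± 2.58 for PFKL in sh-ctrl (SD, n = 3 each). The log2 ratio of FBP1 to PFKL changed by 0.68 (standard error 0.258) and its groups overlapped.

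The last step, the release of free glucose, showed the 2 phosphatase genes moving apart. G6PC, the catalytic subunit of liver and kidney, had 146, 190 and 168 counts in sh-ctrl against 96, 66 and 63 in sh-KIF11, a log2 change of -1.36 (standard error 0.157, edgeR adjusted p = 4.71e-10). G6PC3, the ubiquitous subunit, was at 36.6, 32.6 and 33.7 CPM in sh-ctrl against 41.5, 40.1 and 40.97 CPM in sh-KIF11, a log2 change of 0.25 (standard error 0.0727, edgeR adjusted p = 0.00224). G6PC gave 8.97, 12.2 and 11.8% of the FPKM of the pair in sh-ctrl against 4.904, 3.31 and 3.27% in sh-KIF11. The log2 ratio of G6PC to G6PC3 changed by -1.65 (standard error 0.254). SLC37A4, the carrier that feeds glucose 6-phosphate to these enzymes, fell by 0.48 on the log2 scale (edgeR adjusted p = 4.73e-08).

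**Figure D2:**
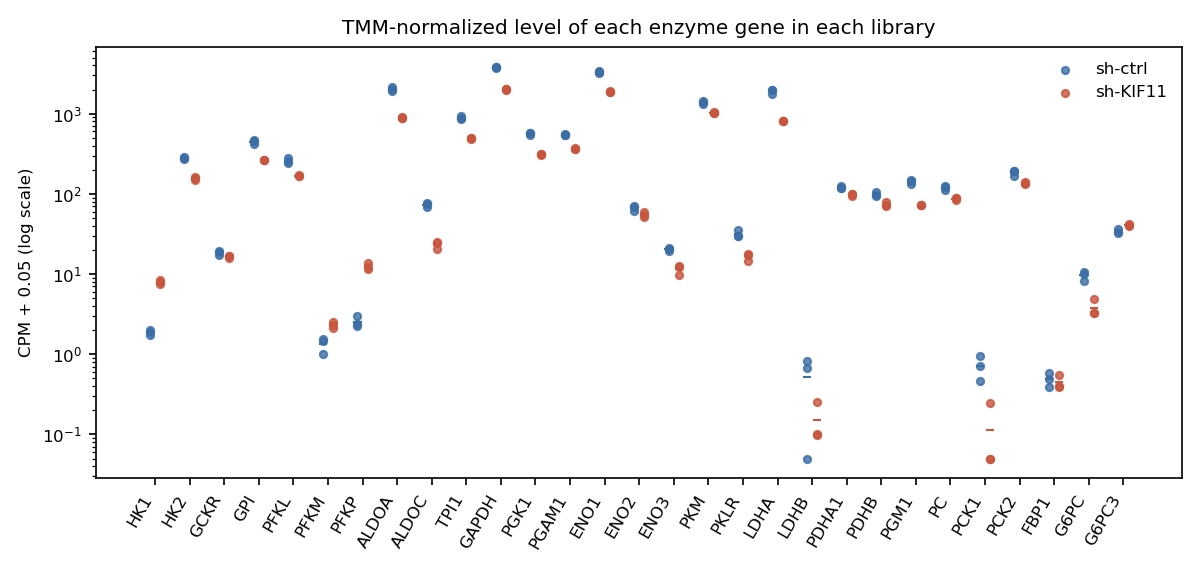
CPM + 0.05 of each gene in each library on a log axis, in pathway order; points are libraries, short lines are group means. Most genes show 3 sh-KIF11 points below 3 sh-ctrl points, with HK1, PFKM, PFKP and G6PC3 the other way round and LDHB, PCK1 and FBP1 near the floor.

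**Figure D3:**
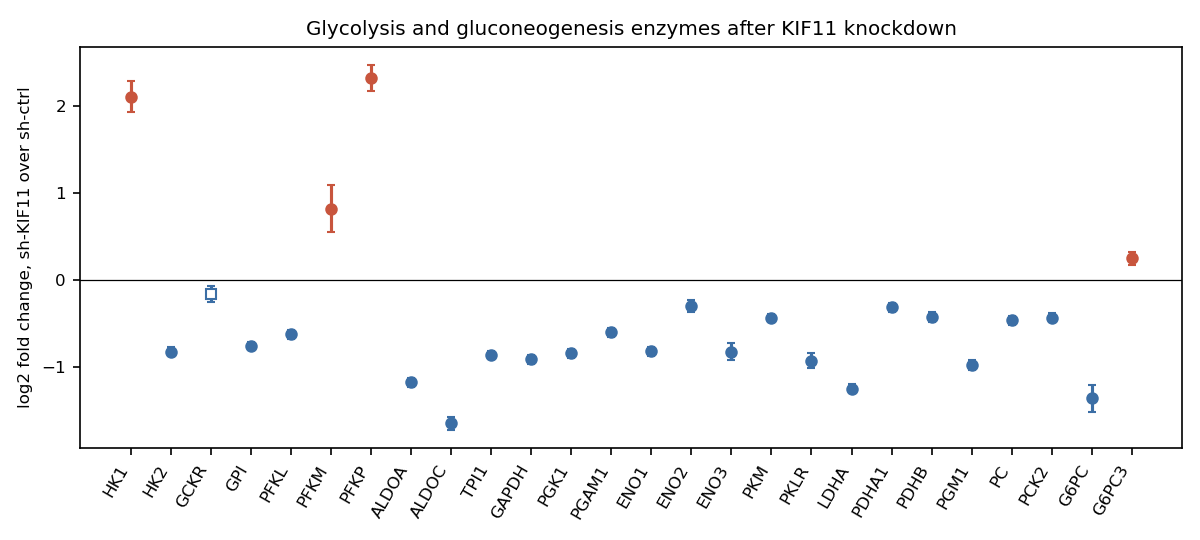
Log2 fold change (y axis, sh-KIF11 over sh-ctrl) of the 26 tested genes in pathway order with its standard error (bars, n = 3 libraries a group); blue lies below 0, red above, and the open square is GCKR, which did not pass. Values run from -1.64 for ALDOC to 2.32 for PFKP.

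In all, 11 pairs of genes were set for ratios within a library, which do not depend on scaling, and 9 could be computed. LDHB and PCK1 were listed at 0 FPKM in some libraries, so their ratios were left out. In 7 of the 9 pairs the groups were separate (two-sided exact permutation p = 0.1 for each and 0.129 after Benjamini-Hochberg adjustment over the 9 pairs). Of all single tested genes 71.2% were separate, and no share over other pairs of genes was computed. The count is thus not read as a result about isozymes. The pairs ENO3 to ENO1 and FBP1 to PFKL overlapped (exact permutation p = 0.4 and 0.2). With 3 libraries a group this exact test cannot go below 0.1, so the ratios are given by their size and standard error.

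**Figure D4:**
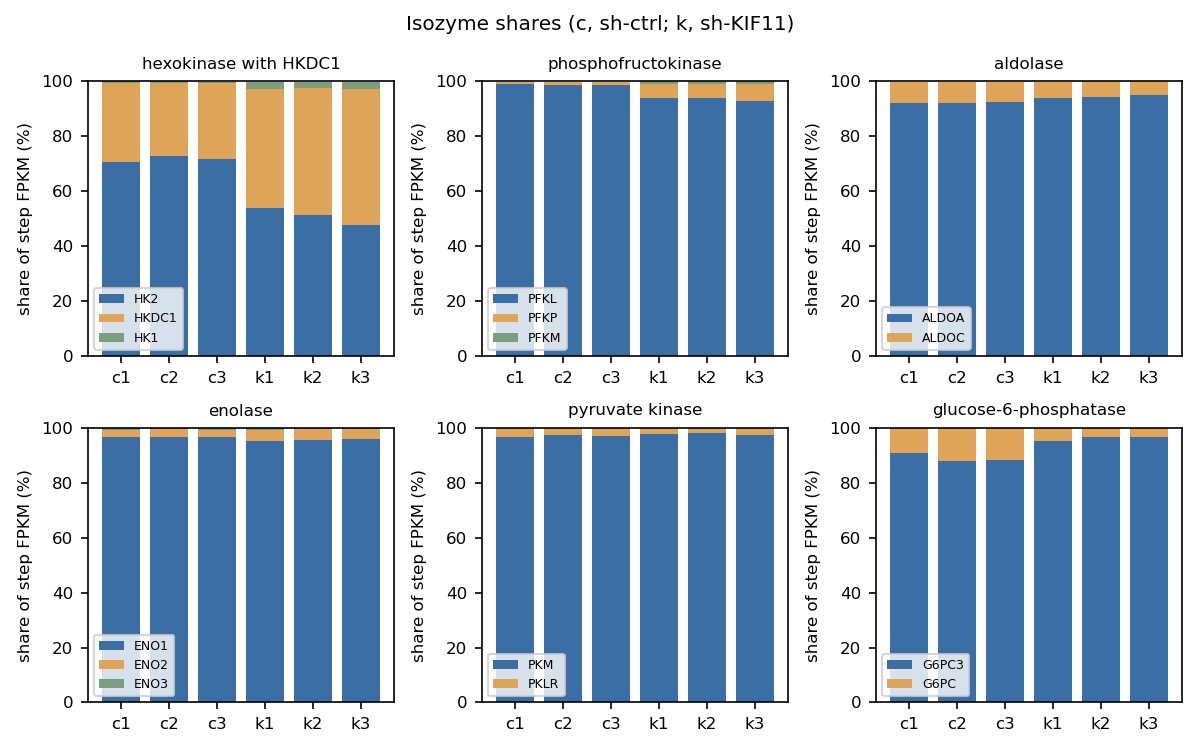
Share of each isozyme in the summed FPKM of its step (y axis, percent) in the 3 sh-ctrl (c1 to c3) and 3 sh-KIF11 (k1 to k3) libraries. HKDC1 takes 29.1, 26.5 and 27.6% in c1 to c3 and 43.4, 46.3 and 49.8% in k1 to k3, and passes HK2 in k3. The leading gene of the other steps stays the same in every library.

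Grouped by tissue type, the 7 liver-enriched members (GCKR, PFKL, PKLR, PC, PCK1, FBP1 and G6PC) had 5 tested genes, 4 lower and 0 higher, with a median log2 fold change of -0.62. The 14 ubiquitous or other-tissue forms had 13 tested genes, 9 lower and 4 higher, with a median of -0.44. The 8 members of steps listed with 1 main gene were GPI, TPI1, GAPDH, PGK1, PGAM1, PGM1, PDHA1 and PDHB. All 8 were tested and lower, with a median of -0.80 and a range from -0.97 to -0.31. Leading genes of steps with isozymes, such as ALDOA and LDHA, stand in the other classes. Each of the 4 genes that rose belonged to the ubiquitous or other-tissue forms, and whether the classes differ was not tested. By level, GAPDH, ENO1 and LDHA led in both groups, at 1574 ± 59.95, 784 ± 45.7 and 651 ± 49.5 FPKM in sh-ctrl against 988 ± 19.2, 513 ± 13.9 and 306 ± 0.886 FPKM in sh-KIF11 (SD, n = 3 each). ALDOA stood in place 4 in sh-ctrl and place 6 in sh-KIF11, behind TPI1 and PKM. TPI1 and PKM, at 186 ± 4.39 and 179 ± 1.55 FPKM in sh-KIF11, were neighbours close in level, and PGK1 and PKM in sh-ctrl did not differ beyond their spread, at 215 ± 4.71 and 213 ± 9.08 FPKM.

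The genes around the pathway were counted from 5 lists. Their counts stand beside 34.7% lower and 34.4% higher over all 12369 tested genes. Of the 15 carriers of glucose, lactate and pyruvate, 13 were tested, of which 9 were lower and 2 higher, with a median log2 fold change of -0.48. MPC1, a subunit of the mitochondrial pyruvate carrier, was at 106, 107 and 116 CPM in sh-ctrl against 35.8, 32.3 and 29.6 CPM in sh-KIF11, a log2 change of -1.75 (edgeR adjusted p = 1.26e-25). Its partner MPC2 fell by 0.70 on the log2 scale. SLC16A3, a lactate exporter of the monocarboxylate carrier family, was at 762, 764 and 735 CPM in sh-ctrl against 386, 351 and 364 CPM in sh-KIF11, a log2 change of -1.04 (edgeR adjusted p = 4.92e-22). SLC2A1, the glucose carrier of most cultured cells, went against the enzymes, with 1023, 992 and 935 CPM in sh-ctrl against 1534, 1499.6 and 1471 CPM in sh-KIF11, and rose by 0.61 on the log2 scale (edgeR adjusted p = 1.01e-14), a gene named after its value was seen.

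Of the 28 regulators, 27 were tested, of which 15 were lower and 9 higher, with a median of -0.20, and 10 were lower and 11 higher under library totals alone. The bifunctional enzymes that set fructose 2,6-bisphosphate, an activator of phosphofructokinase, moved both ways. PFKFB4 was at 34.8, 47.8 and 40.2 CPM in sh-ctrl against 11.6, 10.05 and 8.11 CPM in sh-KIF11, a log2 change of -2.04 (edgeR adjusted p = 7.98e-21). PFKFB3 was at 12.5, 11.1 and 11.6 CPM in sh-ctrl against 22.03, 24.3 and 24.5 CPM in sh-KIF11, a log2 change of 1.01 (edgeR adjusted p = 8.01e-13). PDK4, a kinase that switches pyruvate dehydrogenase off, had 3, 1 and 5 counts in sh-ctrl against 27, 32 and 34 in sh-KIF11, and PDP1, a phosphatase that switches it on, had 63, 54 and 63 in sh-ctrl against 130, 153 and 171 in sh-KIF11. Both rose (log2 fold changes of 3.12 and 1.14, edgeR adjusted p = 1.15e-07 and 7.85e-08), but PDK4 passed the low-count filter only through its sh-KIF11 libraries. The other listed kinases PDK1, PDK2 and PDK3 and the phosphatase PDP2 changed by -0.94, -0.23, -0.49 and -0.68 on the log2 scale. PDK2 lost its call in some settings. PDK1 was more abundant than PDK4, at a mean of 6.21 FPKM in sh-ctrl against 3.70 in sh-KIF11, beside 0.0424 and 0.439 for PDK4. PPARGC1A, a coactivator of gluconeogenic genes, fell by 1.21 on the log2 scale (edgeR adjusted p = 1.48e-15). Of the oxygen-sensing genes on the list, looked up after it was counted, HIF1A, EPAS1, EGLN1, EGLN2 and EGLN3 fell by 0.33, 0.44, 0.20, 0.42 and 0.77 on the log2 scale. Under library totals alone HIF1A did not pass and EGLN1 turned to 0.03, and EGLN1 did not pass under upper-quartile scaling or either limma fit. ARNT (0.09, edgeR adjusted p = 0.246) and VHL (-0.08, edgeR adjusted p = 0.195) did not pass.

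The pentose phosphate pathway makes NADPH and ribose from the same glucose 6-phosphate, and glycogen stores it. Of the 9 pentose phosphate genes, 8 were tested, of which 5 were lower and 1 higher, with a median of -0.21 and no change of at least 1 on the log2 scale. That direction depended on the scaling, with 3 higher and 2 lower under library totals alone and 2 and 2 under both limma fits. Of the 14 glycogen genes, 12 were tested, of which 7 were lower and 4 higher, with a median of -0.21, and 4 were lower and 5 higher under library totals alone. GYS1, the glycogen synthase of most tissues, was at 44.2, 44.4 and 38.3 CPM in sh-ctrl against 19.6, 19.5 and 20.7 CPM in sh-KIF11, a log2 change of -1.09 (edgeR adjusted p = 7.91e-16). Of the 17 other isozymes and pyruvate dehydrogenase parts, 9 were tested, of which 2 were lower and 3 higher, with a median of -0.04, and 1 was lower and 6 higher under library totals alone. The shares that were higher among the regulators, the glycogen genes and the other isozymes lay near the 34.4% of all tested genes. They are not read as results about those lists. Whether these lists differ from the enzymes of the pathway was not tested.

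**Figure D5:**
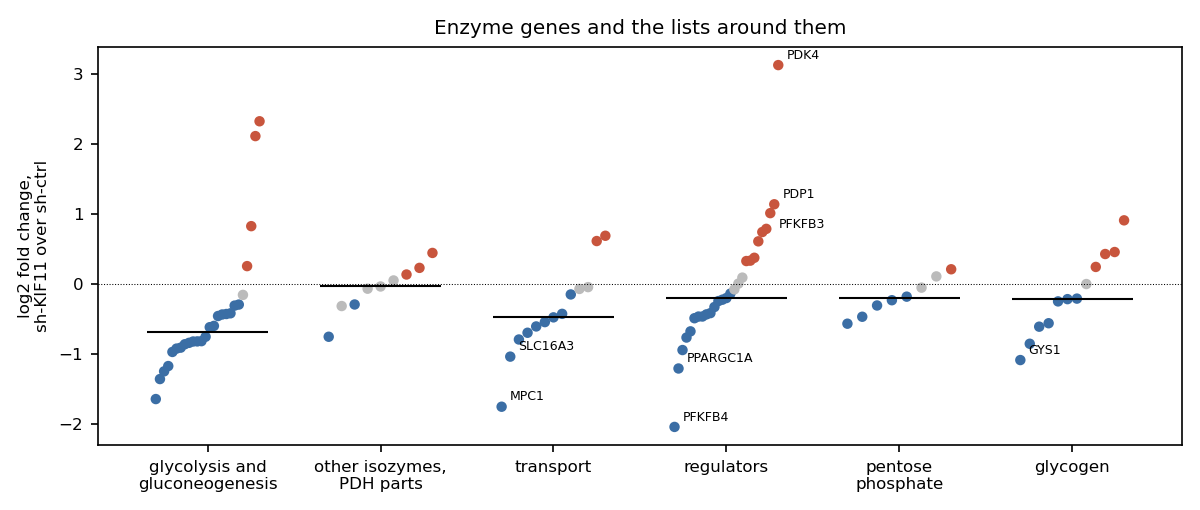
Log2 fold change (y axis, sh-KIF11 over sh-ctrl) of each tested gene of the pathway and of the 5 lists around it; blue is lower and red higher at an adjusted p under 0.05 (edgeR), grey did not pass, and horizontal lines are medians. The medians run from -0.69 for the pathway to -0.04 for the other isozymes, and names mark list genes that changed by at least 1.

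Reads of some members are less certain than others. In GENCODE release 29, 11 of the 29 genes have named pseudogene copies, 102 in all, and 0 of these are rows of the count table. Exons of 7 members overlap a gene of the table on the other strand (PFKM, TPI1, ENO3, PKLR, PDHA1, PGM1 and PC), and PGK1 shares exon positions with ATP7A on its own strand. The libraries were made with a stranded kit, but without the counting setting the reads of such pairs cannot be told apart.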

How the data were processed

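Poly(A) RNA of 3 sh-ctrl and 3 sh-KIF11 HepG2 libraries was sequenced by the authors as 150 bp paired reads. The deposited tables hold raw counts per gene and, for the same genes, FPKM scaled by the authors to transcript length and library size. The submitters' processing notes list Trimmomatic, HISAT2 2.1.0, HTSeq 0.9.1, Cufflinks 2.2.1 and GRCh38. The knockdown columns are named only shRNA and were taken as sh-KIF11, the one other hairpin in the labels.

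Counts were fitted in R 4.3.3 with edgeR 4.0.16 (TMM, filterByExpr, quasi-likelihood, group as the only term), which kept 12369 of 20030 genes, with Benjamini-Hochberg adjustment and a threshold of 0.05. The 3 counts or fewer of a silent gene are the detection floor. The standard errors and SDs given reflect the spread between these libraries, which may be technical. Replicates of a group differed beyond counting noise (a chi-square of 2.68 to 7.85 per degree of freedom). Isozyme shares and ratios used FPKM and scipy's exact permutation test. Alternatives were RLE, upper-quartile and total scaling, other count filters, the replicate block, each library left out, a threshold of 0.01, counts in place of FPKM in the ratios, DESeq2 1.42.0 and limma 3.58.1 on log2(FPKM + 1) and log2(FPKM + 0.1). The procedures were tested on simulated data. Members and lists were chosen with earlier results of these data known. All members are accounted for, with values per library for those that passed with a change of at least 0.58 and for isozyme pairs. Listed genes outside the pathway are named at a change of at least 1, and others were named after their values were seen. Some listed genes have results that are left out here.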

Additional observations from a re-analysis of the deposited data

How the results depend on the processing

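The count of changed members, 25 of 26 tested, ran from 23 to 27 over the alternatives, in which 26 to 29 members were tested. In each, 4 were higher and from 19 to 23 lower. With nearly all members called, and 69.1% of all tested genes, this count had little room to rise. The share of all counts held by the members kept a ratio of sh-KIF11 to sh-ctrl between 0.634 and 0.66, also without the 20 most abundant genes. The totals called in the 5 lists stayed within 1.5 times those of the main fit, though library totals alone moved their split towards higher. The median log2 fold change of -0.69 moved to -0.61 with upper-quartile scaling, -0.46 with library totals alone, -0.77 without a filter, where 29 members were tested, and -0.46 and -0.47 with limma on log2(FPKM + 1) and log2(FPKM + 0.1). The median of all genes moved along with it, to 0.08, 0.24, 0.06, 0.12 and 0.17, and limma split all genes into 5628 higher and 2562 lower, and 5580 and 2423. Leaving out each library gave medians from -0.80 to -0.66, with 28 members tested in 4 of those fits, LDHB and PCK1 being added and called lower in each. Both passed the filter there only through their sh-ctrl libraries. Their calls, which enter the counts and medians of those fits, are thus not read as support. GCKR turned from -0.16 to 0.0729 with library totals alone (edgeR adjusted p = 0.469). ENO2 lost its call with library totals alone and both limma fits (-0.07 to -0.10), and PDHA1 with library totals alone and limma on log2(FPKM + 0.1) (-0.08 and -0.15). The other 23 tested members stayed on the same side in all 15 alternatives. The fit with the replicate block called 25 members and changed no call among them, and 8607 in place of 8548 of all genes. The numbers do not pair the libraries, since deviations of same-numbered libraries correlated at -0.02 to 0.03 and not every library correlated best with its own number. Depth limits what can be said of LDHB, PCK1 and FBP1, which had at most 16 counts in any library.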
